A study of Mus musculus with 3 samples.

Results

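Genes of apoptosis, autophagy and the stress response were compared between mouse liver RNA and Universal Mouse Reference RNA (UMRR) on 2-colour arrays. The members were chosen by name: probes whose single symbol in the platform annotation starts with a name of a Bcl-2 family protein, a caspase or its adaptor, an inhibitor of apoptosis, a Pdcd, Atg, Gabarap, Gadd45, Ddit, Mdm or Sesn gene, or a related prefix. The rule found 94 of 16273 probes, which carried 59 gene symbols. The Cy5 dye marked total RNA of liver, and UMRR, sold as a mixture of RNAs from mouse cell lines, carried Cy3 on each of 3 arrays. Each RNA was a single purchased product amplified in 1 round, with no strain, age, sex or treatment given in the labels, and no array had its dyes swapped. The arrays are therefore repeats of 1 pair of RNAs. The p-values below rest on how far these repeats differ, which is technical spread. They say nothing of how livers or lots of UMRR differ.

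Apoptosis is a programmed death in which Bcl-2 family proteins decide whether the outer membrane of the mitochondria is opened, after which caspases take the cell apart. Autophagy encloses parts of the cytoplasm in a membrane and delivers them to lysosomes. Its Atg proteins attach small ubiquitin-like proteins of the LC3 and GABARAP families to the growing membrane, and in liver the process supplies nutrients during fasting. The p53 pathway and the stress response of the endoplasmic reticulum link damage and misfolded protein to growth arrest and death.

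Each deposited value was read as a log2 ratio of liver over UMRR, with base 2 assumed. Were they natural logs, each would have to be multiplied by 1.44. The direction is not stated and was taken from hepatocyte secretory genes. Of these, Apoc3, Ambp, Rbp4 and Vtn had a ratio on all arrays, with means between 4.01 and 5.17. Ratios compare the 2 RNAs for the same gene and give no level of one gene against another. In RNA from a whole organ, fewer cells of a type and less RNA per cell cannot be told apart. An exact 0 was read as no measured ratio. It was listed for 28.7%, 21.3% and 30.9% of the member probes on arrays 1, 2 and 3, against 32.2%, 23.5% and 29.6% of all probes. The correlation across the 44 member genes was 0.98 between arrays 2 and 3, against 0.89 and 0.90 for array 1 with arrays 2 and 3. The distance of array 1 was not particular to the members. Its median absolute gap to the mean of arrays 2 and 3 was 0.21 for members and 0.24 for all genes. Between arrays 2 and 3 the median absolute gap was 0.14 for members and 0.12 for all genes. These values are a description across genes that share 3 hybridisations.

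Of the 59 member genes, 44 had a ratio on all 3 arrays. A further 7 had a ratio on only 1 or 2 arrays. The other 8 (Aifm3, Atg2b, Casp2, Casp4, Casp8ap2, Casp14, Pdcd7 and Trp53i13) were at exact 0 on every array. The rule found no probe for the prefixes Bax, Birc, Becn, Sqstm, Api5, Tradd and Xiap or for the symbol Bid, so IAP proteins and several central autophagy genes are not analysed here. In limma's moderated test against a ratio of 1, with Benjamini-Hochberg adjustment over 5520 genes and a threshold of 0.05, 29 of the 44 genes passed. The liver side held 15 of them and the UMRR side 14. Over all genes, 64.0% passed, 30.1% higher and 33.9% lower, so the members' share of 65.9% lay near the background. With array 1 left out, more of all genes passed (4004 against 3535). A difference of at least 2-fold on every array was found for 8 members, 4 higher and 4 lower, or 18.2% against 19.0% of all genes (9.46% higher and 9.53% lower). The median log2 ratio was -0.027 over the members and -0.028 over all genes. The differences lay on both sides of 0, and the median of all members was not shifted. Medians of the groups by role ran from -0.72 (endoplasmic reticulum stress, 3 measured genes) to 0.66 (autophagy, 12 measured genes). The -0.72 is the value of Ddit4, an inhibitor of mTOR that was placed in that group by its Ddit prefix. The median absolute log2 ratio was 0.60 over the members and 0.48 over all genes.

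**Figure D1:**
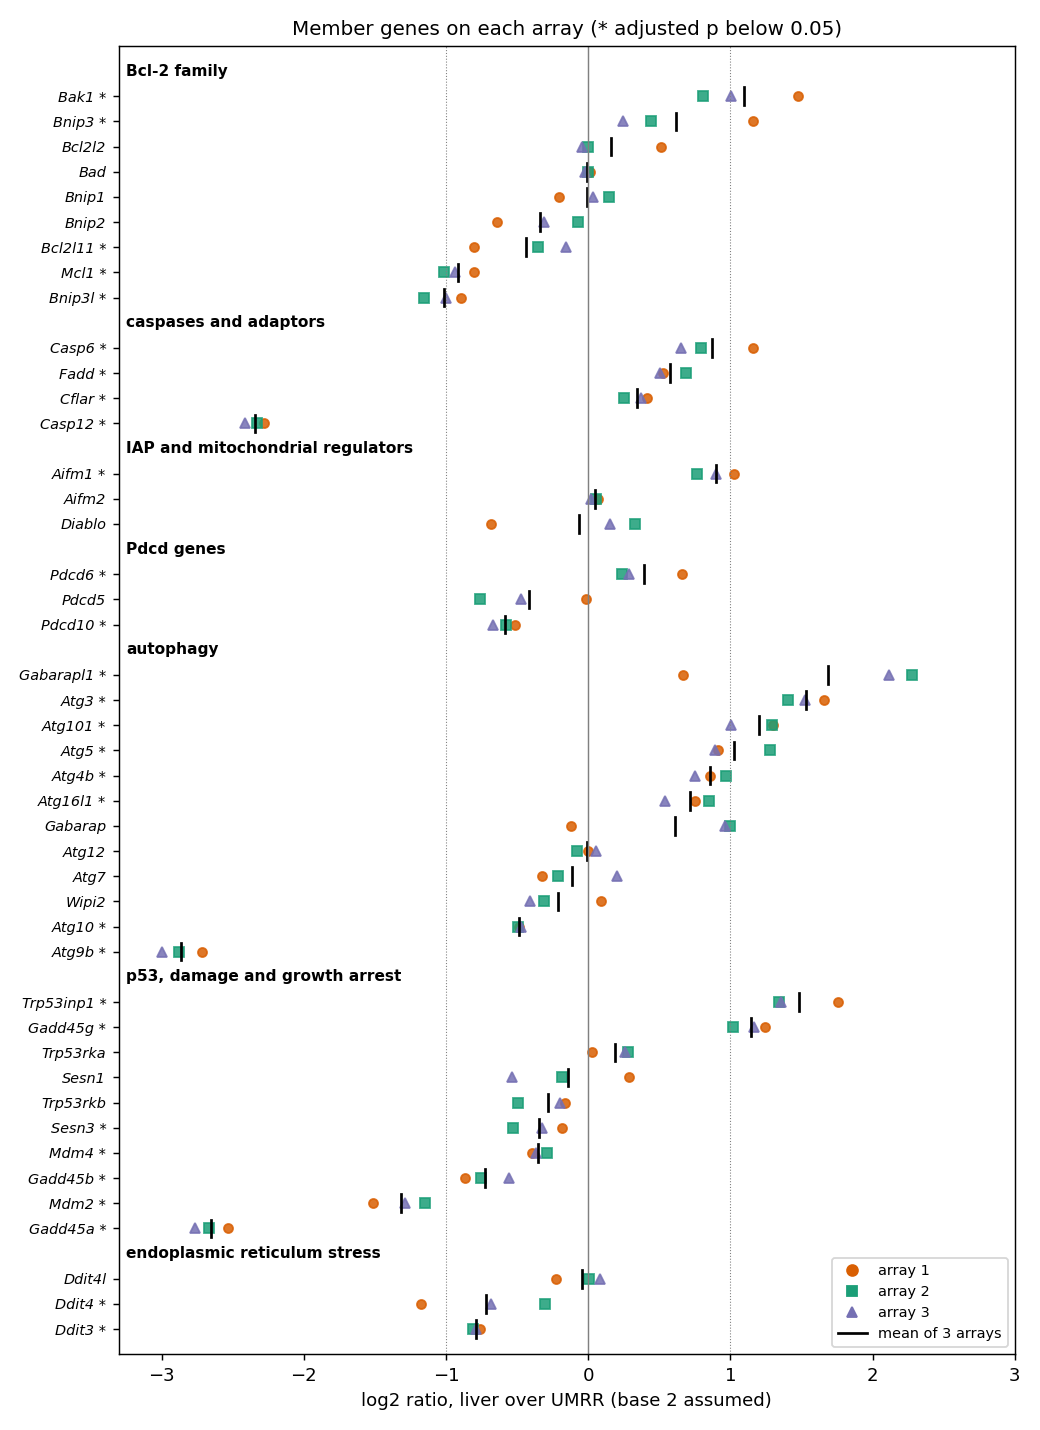
Log2 ratio of liver over UMRR (x axis, base 2 assumed) of the 44 member genes with a ratio on all 3 arrays, 1 gene per line and grouped by role. Coloured points are the arrays, black bars the mean of 3 arrays, dotted lines mark a 2-fold difference, and asterisks mark the 29 genes with an adjusted p below 0.05. Atg9b, Gadd45a and Casp12 lie below -2 on every array, and array 1 stands apart for Gabarapl1, Gabarap and Diablo.

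Of 9 measured genes of the Bcl-2 family, 2 were higher in liver and 3 lower, and 4 missed the threshold. Among all genes 64.0% passed, 30.1% higher and 33.9% lower. The family's median log2 ratio was -0.0078, against -0.028 over all genes. Bak1, which forms pores in the outer mitochondrial membrane, had log2 ratios of 1.48, 0.81 and 1.01 on arrays 1, 2 and 3. It was higher in liver on each array, 2.14-fold on the mean (1.10 ± 0.34, SD, n = 3 arrays, adjusted p = 0.000836), although an unmoderated test missed the threshold (adjusted p = 0.0677). Mcl1, a short-lived protein that holds Bak1 in check, went the other way. Its ratios were -0.81, -1.01 and -0.94, a 1.89-fold lower value in liver (adjusted p = 0.000300). The survival gene Bcl2l2 stood at 0.16 ± 0.31 and did not pass. That value rests on 1 probe, as all other probes of Bcl2l2 were at exact 0 on every array.

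Bnip3l and Bnip3 encode related receptors that mark mitochondria for autophagy. Bnip3l had log2 ratios of -0.89, -1.16 and -1.002 and was 2.02-fold lower in liver (adjusted p = 0.000226). Its 2 probes with full values gave means of -1.16 and -0.88, so they lay on the same side. Bnip3 was higher at 0.62 ± 0.48 (adjusted p = 0.0245), with ratios of 1.16, 0.44 and 0.25, so array 1 was far above the other arrays. A second Bnip3 probe had 0.22 on array 1, -0.87 on array 2 and exact 0 on array 3. With probes measured on only 2 arrays added, Bnip3 missed the threshold at 0.24 (adjusted p = 0.290). Its direction is therefore uncertain.

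Among the family's BH3-only proteins, which trigger death by binding their relatives, Bcl2l11 (Bim) was lower at -0.44 ± 0.33 (adjusted p = 0.0342), with -0.80 on array 1 and -0.36 and -0.15 on arrays 2 and 3. Dropping array 2 ended its call (adjusted p = 0.0672). Bad stood at -0.0048, with a 95% interval of -0.22 to 0.21 (limma's moderated interval). Bnip1, a protein of membrane fusion at the endoplasmic reticulum, stood at -0.0078 (-0.27 to 0.25). Bnip2, placed in this family by its name prefix and not as a BH3-only protein, stood at -0.34 ± 0.29 and did not pass (adjusted p = 0.0603).

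The 4 measured caspases and adaptors all passed, 3 higher and 1 lower, where 64.0% of all genes passed; so few genes say little as a group. Casp12, a caspase of the endoplasmic reticulum membrane, had log2 ratios of -2.28, -2.33 and -2.42. This was 5.06-fold lower in liver (adjusted p = 6.87e-06) and among the lowest 1.78% of all genes. Casp6, an executioner caspase, stood on the liver side at 1.16, 0.79 and 0.65, or 1.82-fold higher (adjusted p = 0.00124), and missed the threshold in the unmoderated test (adjusted p = 0.0653). Fadd, the adaptor of death receptors, was higher at 0.57 ± 0.099, and Cflar, which blocks caspase-8 at that adaptor, at 0.35 ± 0.082. The call of Cflar ended when array 2 (adjusted p = 0.0610) or array 3 (adjusted p = 0.149) was dropped.

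Of the mitochondrial death regulators, Aifm1, a flavoprotein of the space between the mitochondrial membranes, was 1.86-fold higher in liver (0.90 ± 0.13, adjusted p = 0.000385). Its value rests on 1 probe, as another was at exact 0 on every array. Aifm2, an oxidoreductase that protects lipids from peroxidation, stood at 0.047 with a 95% interval of -0.17 to 0.27. Diablo, which releases caspases from IAP proteins, had a gene mean of -0.068 ± 0.54 and did not pass. The spread came from 1 probe, which had -1.51 on array 1 against 0.57 and 0.065 on arrays 2 and 3. The other full probe lay between 0.087 and 0.25. Of the probes without full values, 1 had 0.69 on array 2 and another 0.57 and 0.54 on arrays 2 and 3. Without array 1 the gene mean of the full probes turned to 0.24 (adjusted p = 0.0361).

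The Pdcd genes share a name rather than a function. Pdcd10, a scaffold of kinases that is known from blood vessel malformations, was lower at -0.59 ± 0.076 (adjusted p = 0.00191). Its 3 full probes had means of -0.84, -0.68 and -0.24, with wider SDs of 0.25, 0.16 and 0.17. Pdcd6, a calcium-binding protein of vesicle transport, was higher on each array, at 0.66, 0.24 and 0.29 (adjusted p = 0.0252), a call that ended when array 3 was dropped (adjusted p = 0.0758). Pdcd5 stood at -0.014 on array 1 and at -0.76 and -0.47 on arrays 2 and 3, and it did not pass with 3 arrays (adjusted p = 0.0529) but did without array 1 (adjusted p = 0.000617).

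**Figure D2:**
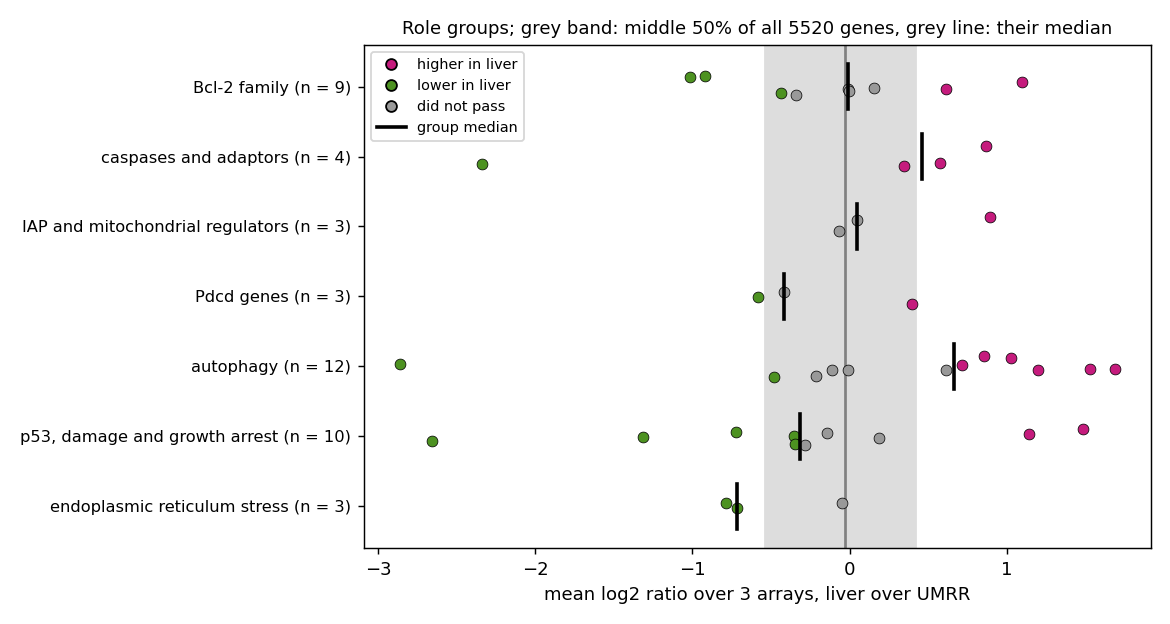
Mean log2 ratio over 3 arrays (x axis) of the member genes in each role group, coloured by the outcome of the limma test, with the group median as a black bar. The grey band spans the middle 50% of all 5520 genes (-0.54 to 0.42), and 24 of the 44 members lie outside it. The autophagy group has its median at 0.66 with Atg9b far to the left.

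Autophagy was the largest group, with 12 measured genes. On the liver side were 6, on the UMRR side 2, and 4 missed the threshold. Over all genes 64.0% passed, 30.1% higher and 33.9% lower. The group's median log2 ratio was 0.66, against -0.028 over all genes. Several of the higher genes act in the conjugation of LC3 and GABARAP proteins. Atg3, the enzyme that hands these proteins to lipid, had gene means of 1.66, 1.41 and 1.53 on arrays 1, 2 and 3. It was 2.89-fold higher in liver (adjusted p = 4.03e-05), and its 3 full probes agreed in sign, with means of 1.28, 1.63 and 1.68. Atg5, part of the complex that directs this step, had 0.91, 1.28 and 0.89 (2.04-fold, adjusted p = 0.000396), a call that ended when exact zeros were counted as ratios of 1 (0.73, adjusted p = 0.166). Its partner Atg16l1 was higher at 0.71 ± 0.16, and the protease Atg4b, which trims the small proteins, at 0.86 ± 0.11. The 2 full probes of Atg4b had means of 1.11 and 0.60, with wider SDs of 0.14 and 0.29.

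The other conjugation genes did not share this direction. Atg7, the activating enzyme that serves the whole system, stood at -0.11 ± 0.28 and did not pass. Atg12, the small protein joined to Atg5, stood at -0.0066 on the mean, but its probes had means of 0.26, 0.16 and -0.44. Atg10, the enzyme that joins Atg12 to Atg5, was lower at -0.48 ± 0.012 (adjusted p = 0.00376). That value is the average of 1 probe at -0.95 and another at -0.022, so the small SD of the gene mean does not describe its probes, whose own SDs were 0.26 each.

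Among the small proteins themselves, the full probes of Gabarapl1 and Gabarap showed a gap between arrays. Gabarapl1, a GABARAP paralogue, had 0.67 on array 1, against 2.28 and 2.12 on arrays 2 and 3. Its mean was 3.22-fold higher in liver (1.69 ± 0.89, adjusted p = 0.00349), and without array 1 it was 2.20 on the log2 scale. A second probe, with ratios on arrays 1 and 2 only, gave 2.56 and 2.64. Gabarap itself was at -0.12 on array 1, against 1.00 and 0.96 on arrays 2 and 3, and both of its full probes had this order. It did not pass with 3 arrays (adjusted p = 0.0545) and did without array 1 (0.98, adjusted p = 1.52e-05). Paralogues of this family are similar in sequence, and a probe may take up RNA of its relatives. In the unmoderated test Gabarapl1 missed the threshold (adjusted p = 0.131), as it did with exact zeros counted as ratios of 1 (adjusted p = 0.0748).

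**Figure D3:**
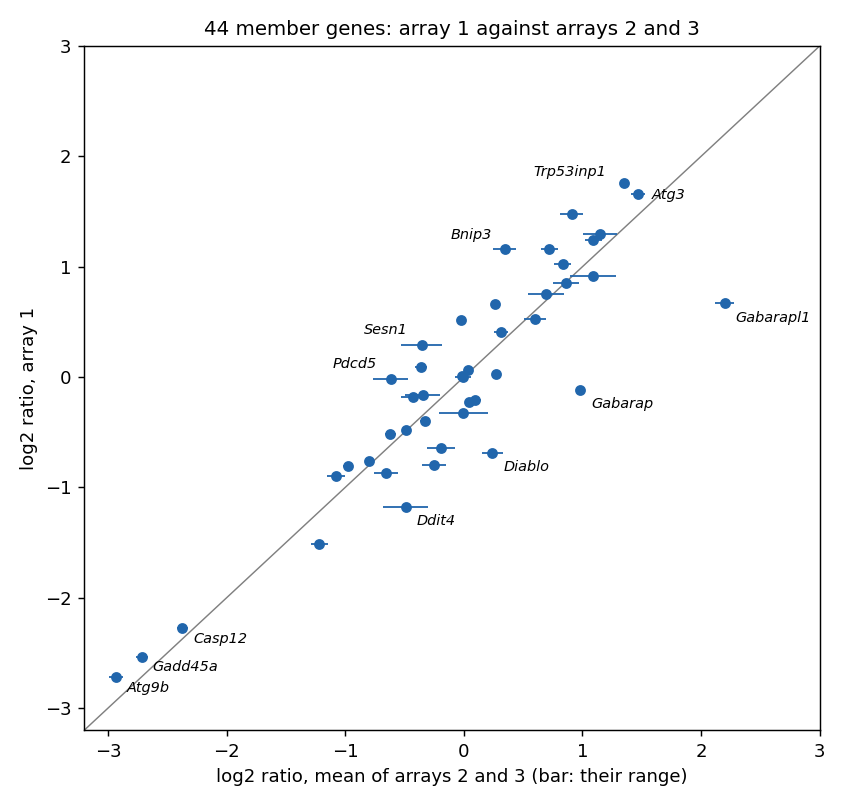
Log2 ratio on array 1 (y axis) against the mean of arrays 2 and 3 (x axis) for the 44 member genes, with the range of arrays 2 and 3 as a horizontal bar and equality as a grey line. Gabarapl1, Gabarap and Diablo lie well below the line, and Bnip3 and Sesn1 above it.

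At the start of the pathway, Atg101, a subunit of the kinase complex that begins autophagy, had log2 ratios of 1.30, 1.29 and 1.01 and was 2.30-fold higher in liver (adjusted p = 0.000144). Wipi2, which reads the lipid signal of the young membrane, stood at -0.21 ± 0.27 and did not pass. Atg9b, one of the paralogues of the protein that moves lipids in vesicles feeding the membrane, had -2.72, -2.87 and -2.99. It was 7.27-fold lower in liver (adjusted p = 5.08e-06), the lowest value of all members. The Atg9b gene overlaps Nos3, the endothelial nitric oxide synthase, in the reference annotation, and RNA of Nos3 reaching this probe is not separated. Overlaps with other coding genes are also annotated for Bak1, Bcl2l11, Bad, Diablo, Aifm2, Atg12, Ddit3, Apaf1, Map1lc3b and Trp53i13, with the same limit.

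Members of the p53 and growth arrest group lay on both sides, with 2 of 10 measured genes higher, 5 lower and 3 not past the test (median -0.31), against 30.1% higher, 33.9% lower and a median of -0.028 over all genes. The Gadd45 paralogues, small proteins that bind stress kinases and cell cycle regulators, were split. Gadd45a had log2 ratios of -2.53, -2.67 and -2.77 and was 6.30-fold lower in liver (adjusted p = 5.57e-06). Gadd45b had -0.87, -0.76 and -0.55 and was 1.65-fold lower (adjusted p = 0.00121). Gadd45g had 1.24, 1.02 and 1.17 and was 2.21-fold higher (adjusted p = 0.000123). The ranges of the 3 paralogues over the arrays did not overlap.

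Trp53inp1, a nuclear protein that p53 induces under stress and that also acts in autophagy, went furthest against its group. It had 1.75, 1.34 and 1.35 and was 2.80-fold higher in liver (adjusted p = 9.46e-05). Mdm2, the ubiquitin ligase that removes p53, had -1.51, -1.14 and -1.29, or 2.49-fold lower (adjusted p = 0.000109). Its value rests on 1 probe, as another was at exact 0 on every array. Its relative Mdm4 was lower at -0.35 ± 0.056, a call that ended when array 2 (adjusted p = 0.0663) or array 3 (adjusted p = 0.137) was dropped. Mdm4's 2 full probes had means of -0.50 and -0.20 with SDs of 0.17 and 0.16, which the SD of the gene mean does not describe. Sesn3, a stress protein that restrains mTOR, was lower at -0.34 ± 0.17 a call that likewise ended when array 2 (adjusted p = 0.203) or array 3 (adjusted p = 0.141) was dropped. Sesn1 ran between -0.53 and 0.29 and did not pass. Trp53rka (0.19 ± 0.14) and Trp53rkb (-0.29 ± 0.18), copies of a kinase gene needed for tRNA modification, did not pass, and a probe may not tell them apart.

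The stress genes of the Ddit prefix were lower or did not pass. Ddit3 (CHOP), the transcription factor that carries the death signal of the stressed endoplasmic reticulum, had -0.76, -0.81 and -0.79. It was 1.72-fold lower in liver (adjusted p = 0.000443), with little spread between arrays. Ddit4 (REDD1), an inhibitor of mTOR, had -1.18, -0.30 and -0.68 and was lower on the mean (adjusted p = 0.0105), though the unmoderated test gave an adjusted p of 0.159. Its paralogue Ddit4l stood at -0.045 (95% interval -0.25 to 0.21).

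The upstream 250 bases of 6 members are shown from RefSeq (GRCm38.p6), on the strand of the gene. The Gadd45 paralogues are shown because they lay on different sides, and Atg3, Atg5 and Atg9b because they are autophagy genes on both sides of a ratio of 1. Capitals mark the E-box core CACGTG, a site type read by basic helix-loop-helix factors, searched on both strands. A promoter entry was found for 55 of the 59 members.
Gadd45a, chr6:67037408-67037657, minus strand: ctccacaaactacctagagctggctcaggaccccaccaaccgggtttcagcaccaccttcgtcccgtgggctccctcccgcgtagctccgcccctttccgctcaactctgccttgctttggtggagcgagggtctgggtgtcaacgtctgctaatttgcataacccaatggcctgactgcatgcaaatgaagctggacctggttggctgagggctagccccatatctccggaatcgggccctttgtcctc
Gadd45b, chr10:80929841-80930090, plus strand: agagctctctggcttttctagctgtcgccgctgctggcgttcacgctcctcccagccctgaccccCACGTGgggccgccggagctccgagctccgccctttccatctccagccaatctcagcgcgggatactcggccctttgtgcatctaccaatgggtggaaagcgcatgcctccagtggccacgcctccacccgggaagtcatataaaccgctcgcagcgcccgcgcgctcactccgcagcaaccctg
Gadd45g, chr13:51846425-51846674, plus strand: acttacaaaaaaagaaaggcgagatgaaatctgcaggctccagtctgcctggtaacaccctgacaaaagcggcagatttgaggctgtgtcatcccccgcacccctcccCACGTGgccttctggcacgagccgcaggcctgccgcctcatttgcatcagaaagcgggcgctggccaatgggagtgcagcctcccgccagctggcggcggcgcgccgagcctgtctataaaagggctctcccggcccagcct
Atg3, chr16:45158579-45158828, plus strand: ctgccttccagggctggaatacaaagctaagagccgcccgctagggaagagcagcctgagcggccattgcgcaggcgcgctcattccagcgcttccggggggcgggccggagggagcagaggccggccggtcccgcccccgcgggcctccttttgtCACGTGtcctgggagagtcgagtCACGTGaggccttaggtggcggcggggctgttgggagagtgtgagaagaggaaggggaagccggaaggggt
Atg5, chr10:44268089-44268338, plus strand: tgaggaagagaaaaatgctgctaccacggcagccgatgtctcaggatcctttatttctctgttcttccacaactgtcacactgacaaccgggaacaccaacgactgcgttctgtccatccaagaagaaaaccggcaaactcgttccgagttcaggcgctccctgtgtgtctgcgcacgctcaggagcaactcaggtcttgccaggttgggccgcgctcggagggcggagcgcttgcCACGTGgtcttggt
Atg9b, chr5:24392144-24392393, minus strand: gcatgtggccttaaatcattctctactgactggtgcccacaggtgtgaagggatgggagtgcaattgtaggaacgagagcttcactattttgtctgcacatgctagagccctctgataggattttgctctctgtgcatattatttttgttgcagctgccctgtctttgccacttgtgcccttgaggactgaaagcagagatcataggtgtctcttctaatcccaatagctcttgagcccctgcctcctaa
The E-box core was found in 7 of the 61 member windows (11.5%), against 6.02% of all 32851 windows of this length. It was present in Gadd45b, Gadd45g, Atg3, Atg5, Atg7, Bnip1 and Bnip3. Atg3 held 2 copies, which began 94 and 71 bases before the start. The endoplasmic reticulum stress element (CCAAT and CCACG with 9 free bases between them, both strands) can share bases with an E-box. It was in 0 member windows and in 0.113% of all windows. The matches describe these letters only: of the 7 genes, Gadd45g, Atg3, Atg5 and Bnip3 were higher in liver, Gadd45b was lower, and Atg7 and Bnip1 did not pass.

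**Figure D4:**
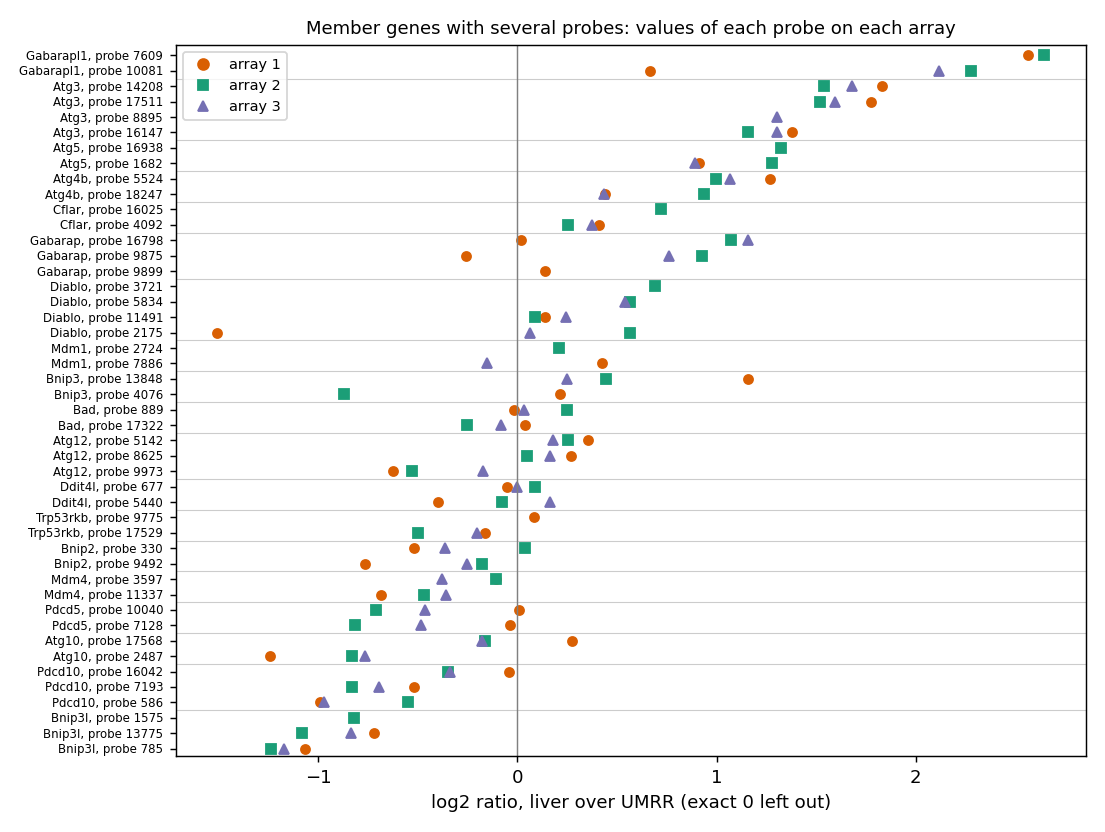
Log2 ratio (x axis) of every probe of the 19 member genes that had several probes with a ratio, 1 probe per line, with a coloured point for each array and exact 0 left out. The probes of Atg3 all lie above 1 and those of Bnip3l all below 0, while the probes of Atg12 lie on both sides of 0 and 1 probe of Diablo has array 1 far to the left.

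Probes of 1 gene differed about as much among the members as elsewhere. Of 13 members with at least 2 full probes, the median gap between the highest and lowest probe mean was 0.30, against 0.34 over 1328 genes of the array. The widest gap was that of Atg10, at 0.92. The median SD between arrays was 0.16 for the members and 0.17 for all genes.

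Other genes of these pathways, listed apart from the rule, went both ways as well. Of 23 measured genes, 7 were higher in liver and 10 lower, with a median of -0.12, against 30.1% higher and 33.9% lower over all genes. The lists below hold few genes each and are read only gene by gene. In death receptor signalling, 1 of 5 was higher and 3 were lower, with Dapk1, a death-associated kinase, 4.77-fold higher (2.25 ± 0.29) and its relative Dapk3 3.14-fold lower (-1.65 ± 0.16). Of 3 mitochondrial and executioner genes, Cycs, the cytochrome c that starts the caspase cascade, was higher at 0.73 ± 0.25 and Vdac2, a channel that binds Bak1, lower at -0.45 ± 0.27. Of 7 further autophagy genes, 3 were higher and 1 was lower, with Lamp2, a lysosomal membrane protein, at 1.44 ± 0.41 and the cargo receptor Tax1bp1 at 0.45 ± 0.085.

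Of 5 further genes of endoplasmic reticulum stress, 2 were higher and 2 lower, with the chaperone partner Dnajb9 at 1.89 ± 0.41 and Sel1l, which helps to remove misfolded proteins, at -0.73 ± 0.15. All 3 measured p53 target and damage genes were lower, among them the stress kinase Plk2, 11.3-fold (-3.50 ± 0.17), and the damage kinase Atm, 1.93-fold (-0.95 ± 0.098).

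Marker genes of other cells differed between the RNAs along with these members. All 5 measured genes (14 listed) of proliferating cells were lower in liver (-4.15 to -1.43), and Mki67 and Aurka were at exact 0. All 7 measured genes (13 listed) of pancreatic acinar cells were higher (3.33 to 5.55). Of erythroid genes 3 of 5 were higher (3.09 to 4.94), Kupffer cells were measured by Slc40a1 alone (3.998), and lymphocyte (2 of 3 higher, 1 lower), endothelial (1 of 2 higher) and fibroblast genes (1 of 3 higher, 2 lower, Sparc at exact 0) were mixed. Their part in the results was not tested.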

How the data were processed

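Liver and UMRR RNA were compared on 3 arrays that form 1 group. The authors deposited 1 value for each probe on each array, which was taken as a log2 ratio without a stated base or direction. Array design, scanning, background correction and dye normalization were not given in the sources used here. The deposited values were used without further scaling, so dye bias is part of each ratio. Exact zeros were left out. Of 16273 probes 12336 had 1 symbol, 61 several and 3876 none, and 12228 of the 12336 were matched to GRCm38.p6 names. Probes with a ratio on every array (9910) were averaged per symbol, which gave 5520 genes, and the mean ratio of each was tested two-sided against 0 in limma 3.58.1 (lmFit, eBayes, R 4.3.3), without a block. The test leaves out differences between lots of UMRR and between livers.

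The fit was tested on simulated data (5520 genes, of which 200 changed) and recovered 23.8% of changes of 0.5, 92.0% of 1 and 99.9% of 2 on the log2 scale, with 4.85% false calls. In the data 3535 genes passed, so these shares do not carry over. The number of arrays limits the precision. Members and lists were chosen with earlier results of these data known. Every measured member could be named. Array values were given in full for members past the test at least 2-fold from 1 on the mean and for the called member furthest against its group, and for other members where they helped to show the agreement or the gap between arrays, probes or paralogues, a choice made after the values were seen. Of the other lists, the 2 called genes with the largest absolute mean were named.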

Additional observations from a re-analysis of the deposited data

How the results depend on the processing

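With 1 array left out, 13 to 18 members were higher and 12 to 18 lower, and 2755 to 4004 of all genes passed. A 2-fold gap on each remaining array was found for 8 to 10 members, which was not counted over all genes. Without array 1, 6 members gained a call (Gabarap, Pdcd5, Sesn1, Trp53rka, Trp53rkb and Wipi2) and Diablo, whose mean ran from -0.265 to 0.241 over these settings, passed with its sign turned. Gained calls were not particular to the members. Over all genes, 4004 passed without array 1, against 3535 with 3 arrays, 2914 without array 2 and 2755 without array 3. In a test against a 2-fold difference, 2 members were higher (Atg3 and Trp53inp1), 3 lower (Atg9b, Gadd45a and Casp12), and 816 of all genes passed. Without moderation of the variance 2087 of all genes and 21 members passed, and Bak1, Bcl2l11, Bnip3, Casp6, Ddit4, Gabarapl1, Pdcd6 and Sesn3 lost their calls, with adjusted p-values between 0.0653 and 0.216. Read as natural logs, 15 members were 2-fold or more from 1 on each array. This was not counted over all genes either, so it says nothing particular to the members. Counting exact zeros as ratios of 1, Atg5, Bcl2l11, Bnip3, Cflar, Ddit4, Gabarapl1, Pdcd6 and Sesn3 lost their calls, with adjusted p-values between 0.0748 and 0.604. In that fit, which also took probes without full ratios, 2391 of all genes passed. At an adjusted p of 0.01, 7 members lost their calls, and 2739 of all genes passed, against 3535 at 0.05. Centring each run of 500 probe numbers on its own median ended 3 calls (Bcl2l11, Mdm4 and Sesn3) and added 2, and adding probes measured on 2 arrays ended 1. The single probe with the smallest p per gene added 4, among them Atg12 from its probe at -0.44, with its others at 0.26 and 0.16. Leaving out the probes with the largest SD added 3 (Bnip2, Pdcd5 and Trp53rkb) and removed Gabarap and the called Gabarapl1 from the fit. These last 2 settings picked probes by the tested values, which favours gained calls. Centring or scaling the arrays, the median probe, and eBayes with trend and robust set each changed no member's call and turned no called member's direction. The cause of these changes was not tested. Each ratio already pairs liver with UMRR on 1 array, and no further pairing was possible because the arrays form 1 group. The signal over background of single spots was not used here, so dim probes could not be set apart.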

Other observations

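Of the members without a ratio on all arrays, 7 had a value on 1 or 2. Apaf1, the scaffold on which caspase-9 is activated, had -1.91 and -1.76 on arrays 2 and 3 and exact 0 on array 1. In a fit that also took probes measured on 2 arrays, it was 3.58-fold lower in liver (-1.84, limma adjusted p = 0.000330). Map1lc3b, the LC3 protein that is most used as a marker of autophagy, had 0.52 and 0.62 on arrays 1 and 2, on the liver side (adjusted p = 0.0141). Trp53i11 had -0.62 and -0.43 on arrays 1 and 2 (adjusted p = 0.0213), and Atg16l2, a relative of Atg16l1, had -0.24 and -0.43 on arrays 2 and 3 (adjusted p = 0.0763). Mdm1, a centriole protein despite its name, had values of 0.42, 0.21 and -0.15 over 2 probes, each array on 1 probe. Bcl2l13, a mitophagy receptor, had -1.02 and Herpud2 had 0.47, both on array 2 alone. Fits on 2 arrays rest on 1 difference between arrays and borrow their spread from all genes.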
